A study of Zea mays with 4 samples.

Results

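Zeins are the alcohol-soluble storage proteins of the maize kernel, and this account covers the 6 genes of the series for the beta, gamma and delta classes, out of 34567 genes listed in any library. They were taken by gene identifier: the gamma-zein genes gz27 (GRMZM2G138727), gz50 (GRMZM2G138689) and gz16 (GRMZM2G060429, also zp16), the beta-zein gene bz15 (GRMZM2G086294, also zp15), and the delta-zein genes dzs10 (BGI_novel_G003037) and dzs18 (GRMZM2G100018). Class and symbol follow RefSeq, and the number in each symbol is the nominal size of the protein in kDa. The deposited descriptions differ for some of them, since gz16 is described there as a zein-beta precursor and bz15 as a prolamin. Endosperm of Zea mays was sampled 10 days after pollination from wild-type kernels and from kernels of a mutant labelled dek, with 2 libraries of each genotype, A and B. Paired values below give pool A first and pool B second. Each library came from a pool of 8 to 10 individuals taken from segregating ears. The labels give neither the mutated gene nor the parental strain, and they do not say whether the wild-type pools held heterozygous kernels.

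Zeins are made on the rough endoplasmic reticulum of starchy endosperm cells and pack into protein bodies. The cysteine-rich gamma-zeins and the beta-zein form the outer shell of a protein body, held together by disulfide bonds, while alpha-zeins and delta-zeins fill the core. Beta- and delta-zeins are rich in methionine, an amino acid that alpha-zeins largely lack. The 27-kDa gamma-zein is made early in endosperm development and has a part in the formation of protein bodies.

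All 6 genes were lower in dek than in wild type, and the falls were unequal. The 27-kDa gamma-zein gene kept 26.8% of its wild-type FPKM (fragment counts scaled to transcript length and library size), and the other 5 genes kept 1.3% to 4.35%. All 6 were listed in each library and passed the filter on low counts. At an adjusted p under 0.05 in edgeR, 6 of 6 were lower in dek, where 8.85% of the 24624 genes tested were lower and 16.8% changed in either direction. For each of the 6, both dek libraries lay below both wild-type libraries in FPKM, which was so for 17.0% of the genes tested. The median log2 fold change was -5.83 for the 6 genes and 0.01 for all genes tested.

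**Figure D1:**
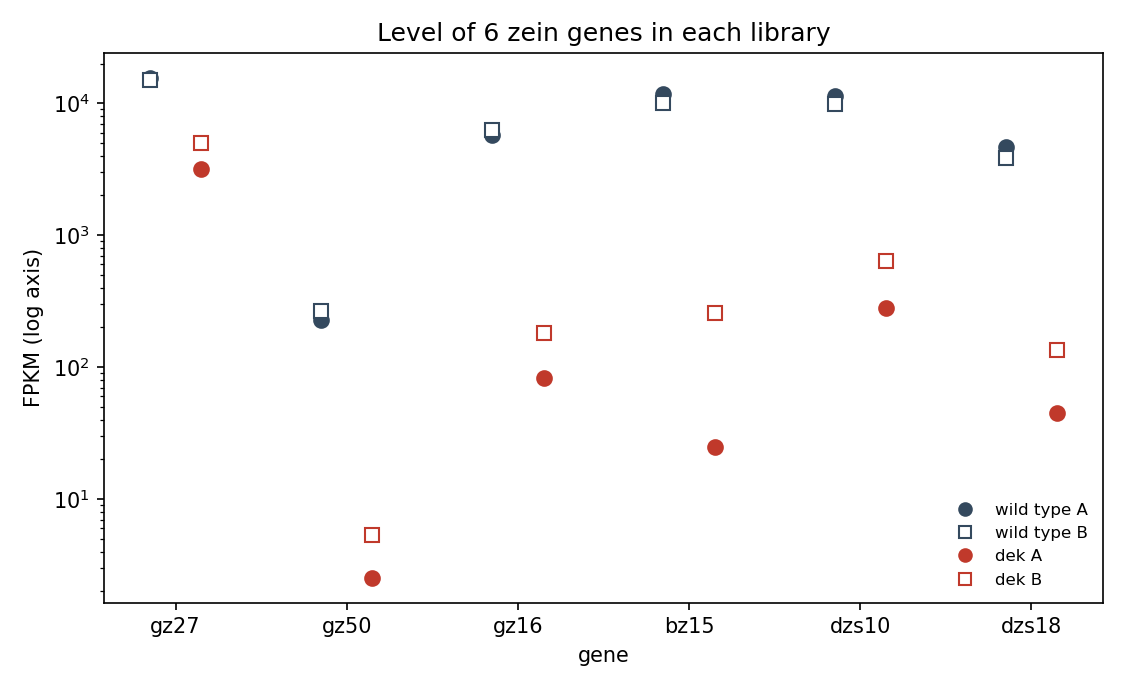
FPKM of each gene (log axis) in each of the 4 libraries; dark symbols are wild type and red symbols dek, filled circles pool A and open squares pool B. The wild-type pools lie close together for every gene, gz27 has the smallest gap between genotypes, and pool B lies above pool A in dek for all 6 genes, by the widest margin for bz15.

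Estimated counts summed to between 13119658 and 14776699 per library. The 5 markers of starchy endosperm were opaque2 and pbf1, which are also zein regulators, and the starch genes sh2, bt2 and wx1. They were detected in every library. In edgeR all 5 were lower in dek, where 8.85% of all genes tested were lower. The count was 4 with total-count scaling, with limma and with the replicate letter as a block, where opaque2 did not pass. Their summed level was 5407 and 5033 FPKM in the wild-type pools and 654 and 710 FPKM in the dek pools. The 13 markers of the basal transfer layer, the nutrient-uptake layer of the endosperm, summed to 2980 and 806 FPKM in the wild-type pools and to 8528 and 5789 FPKM in the dek pools. None of the 13 was at 0 in any library. In edgeR 2 of 13 were higher in dek, where 7.98% of all genes tested were higher. All 13 had positive log2 fold changes, from 1.075 to 4.803, and 9 were higher at an unadjusted p under 0.05. The count of 2 changed with the library left out. The 4 aleurone markers summed to 290 and 288 FPKM in wild type and to 313 and 339 in dek. None of the 4 passed the threshold in edgeR with TMM factors or in DESeq2, while 1 was higher at an unadjusted p under 0.05, with total-count scaling and with limma. The 7 markers of the embryo-surrounding region ranged from 25.4 to 120 FPKM in sum in wild type and from 193 to 200 in dek. Of 6 tested, 1 was higher, beside the same 7.98% of all genes, and this count too changed with the library left out. The 3 embryo markers, most of whose level was glb1, ranged from 22.9 to 25 in wild type and from 12.8 to 17.4 in dek. In each of these last lists, 1 gene was at 0 in at least 1 library. The libraries are bulk tissue, so fewer cells of a type and less RNA per cell cannot be told apart, and the part of tissue make-up in the zein values was not tested.

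The gamma-zein genes held both the smallest fall and one of the largest. The gene gz27 stood at 15549 and 14900.4 FPKM in the wild-type pools, and at 3153 and 5006 FPKM in the dek pools. It ranked 1 by FPKM among the genes of each wild-type library, and still ranked 8 and 5 in the dek pools. The estimated counts behind these levels were 367358 and 304616 in wild type and 73051 and 113819 in dek. The genotypes did not overlap, and gz27 fell 4.71-fold, a log2 fold change of -2.24 ± 0.24 (± SE), with an adjusted p of 0.00615 by edgeR's quasi-likelihood test with Benjamini-Hochberg correction. The fall was 6.22-fold without dek B and 3.84-fold without dek A.

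The 50-kDa gamma-zein gene gz50 was the least abundant of the 6. It had 228 and 268 FPKM in the wild-type pools and 2.54 and 5.37 FPKM in the dek pools, resting on 48 and 101 estimated counts in the mutant. In RefSeq no gene lies between gz50 and gz27, so these neighbours showed falls of different size. The gz50 fall was 76.9-fold, at -6.26 ± 0.38 on the log2 scale (adjusted p = 0.00161 by edgeR's quasi-likelihood test with Benjamini-Hochberg correction), and 123-fold without dek B.

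The third gamma-zein gene, gz16, stood at 5783 and 6268 FPKM in the wild-type pools, and at 83.3 and 182 FPKM in the dek pools. Its rank by FPKM went from 7 and 5 in wild type to 1359 and 625 in dek. The gene fell 55.7-fold, a log2 fold change of -5.80 ± 0.44 (adjusted p = 0.00275 by edgeR's quasi-likelihood test with Benjamini-Hochberg correction), and 91.5-fold without dek B. The proteins of gz16 and gz27 are related in sequence, and wild type A was the library in which both had estimated counts that were not whole numbers. The fractional counts, 367358.21 for gz27 and 87130.79 for gz16, added up to the whole number 454489. The other 22 of the 24 estimated counts of the 6 genes were whole to within 0.005.

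The beta-zein gene bz15 fell furthest in the fit and varied most between the mutant pools. It had 11710 and 10014 FPKM in the wild-type pools, and 24.96 and 259 FPKM in the dek pools. Wild type was even, with rank 2 in both libraries, while dek A and B ranked it 4761 and 431. The fall was 93.4-fold, a log2 fold change of -6.54 ± 1.16 (± SE), and bz15 had the largest standard error of the 6 genes and the highest adjusted p, 0.0201 by edgeR's quasi-likelihood test with Benjamini-Hochberg correction. Leaving out dek B gave a 551-fold fall and leaving out dek A a 51.4-fold fall, so the direction held while the size rested on which mutant pool was used.

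The delta-zein genes were both strongly lower. The 10-kDa gene dzs10 stood at 11280 and 9936 FPKM in the wild-type pools, and at 282 and 641 FPKM in the dek pools. It ranked 3 in each wild-type pool but 367 and 101 in the dek pools, the second most abundant of the 6 genes in the mutant. Its fall was 28.1-fold, a log2 fold change of -4.81 ± 0.44 (adjusted p = 0.00408 by edgeR's quasi-likelihood test with Benjamini-Hochberg correction), and 47.5-fold without dek B.

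The 18-kDa delta-zein gene dzs18 was the less abundant of the delta pair. It had 4659 and 3863 FPKM in the wild-type pools and 44.9 and 136 FPKM in the dek pools, and its rank moved from 10 in each wild-type pool to 2642 and 863. The gene fell 57.8-fold, a log2 fold change of -5.85 ± 0.59 (adjusted p = 0.00545 by edgeR's quasi-likelihood test with Benjamini-Hochberg correction), 120-fold without dek B and 38.5-fold without dek A. Fold changes here are on the TMM scale, edgeR's correction for library composition. With scaling to total counts alone, the median gene moved up by 0.31 on the log2 scale, and the falls of the 6 genes ran from 3.82-fold for gz27 to 76.3-fold for bz15.

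**Figure D2:**
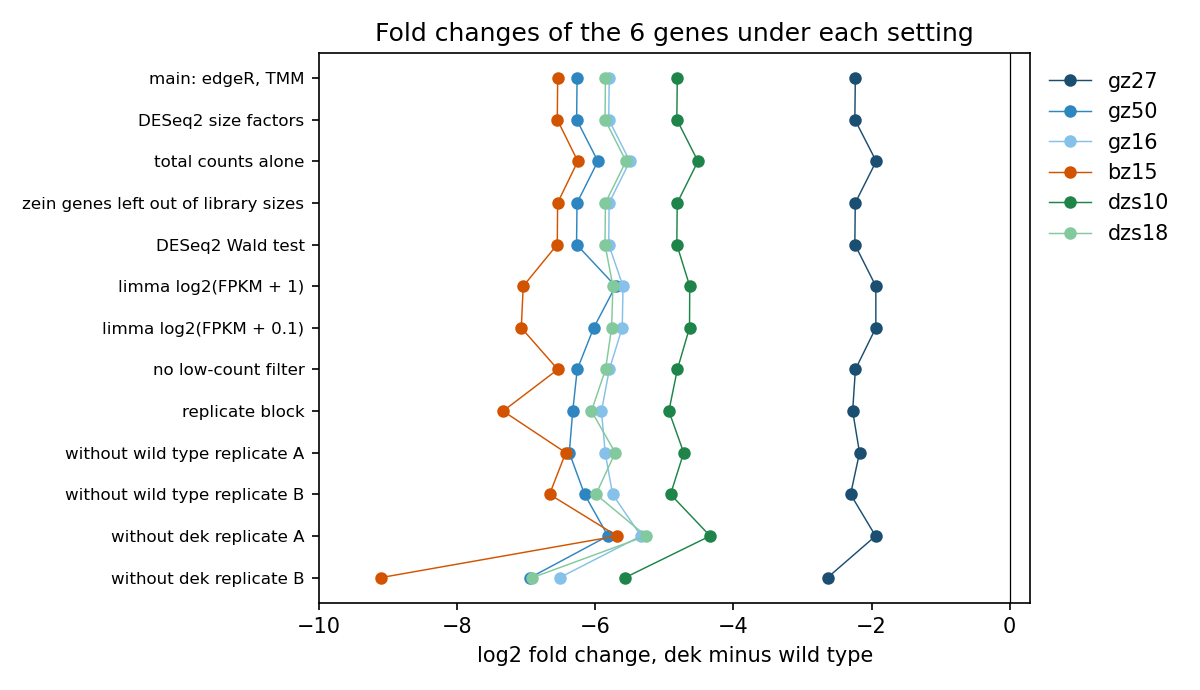
Log2 fold change (dek minus wild type) of each gene under the main fit and each alternative setting, one line per gene. Every value lies below 0, gz27 stays apart from the other 5 genes, and the widest move is that of bz15 when dek B is left out.

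The order of levels among the 6 genes changed between genotypes. In wild type the mean FPKM fell in the order gz27 (15225 ± 459), bz15 (10862 ± 1199), dzs10 (10608 ± 951), gz16 (6026 ± 343), dzs18 (4261 ± 563) and gz50 (248 ± 28.0; mean ± SD, n = 2 libraries each). Of the neighbours in that order, bz15 and dzs10 overlapped between libraries and the other neighbours did not. In dek the order was gz27 (4079 ± 1310.2), dzs10 (462 ± 254), bz15 (142 ± 165), gz16 (133 ± 69.9), dzs18 (90.2 ± 64.1) and gz50 (3.96 ± 2.0). There bz15, gz16 and dzs18 overlapped one with the next, so their order in dek is not resolved by these pools.

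The make-up of the 6 transcripts shifted toward gz27. By summed FPKM, a per-length scale, gz27 made up 31.6% and 32.9% in the wild-type pools and 87.8% and 80.4% in the dek pools. The beta-zein share went from 23.8% and 22.1% to 0.695% and 4.15%, and the delta-zein share from 32.4% and 30.5% to 9.11% and 12.5%. The ratio of gz27 to the sum of the other 5 genes was 0.462 and 0.491 in the wild-type pools and 7.20 and 4.09 in the dek pools. On the log2 scale this ratio was 3.51 higher in dek, and an exact two-sided permutation test gave p = 0.333, the smallest that 2 against 2 libraries allow. Together the 6 genes took 5% ± 0.31 of all estimated counts in wild type and 0.695% ± 0.240 in dek (mean ± SD, n = 2). By library the shares were 5.21% (95% Wilson interval 5.201 to 5.224) and 4.78% (4.767 to 4.790) in wild type, and 0.525% (0.5214 to 0.5287) and 0.864% (0.8594 to 0.8689) in dek. The intervals cover counting error only, and the pools of a genotype differed by more than that.

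**Figure D3:**
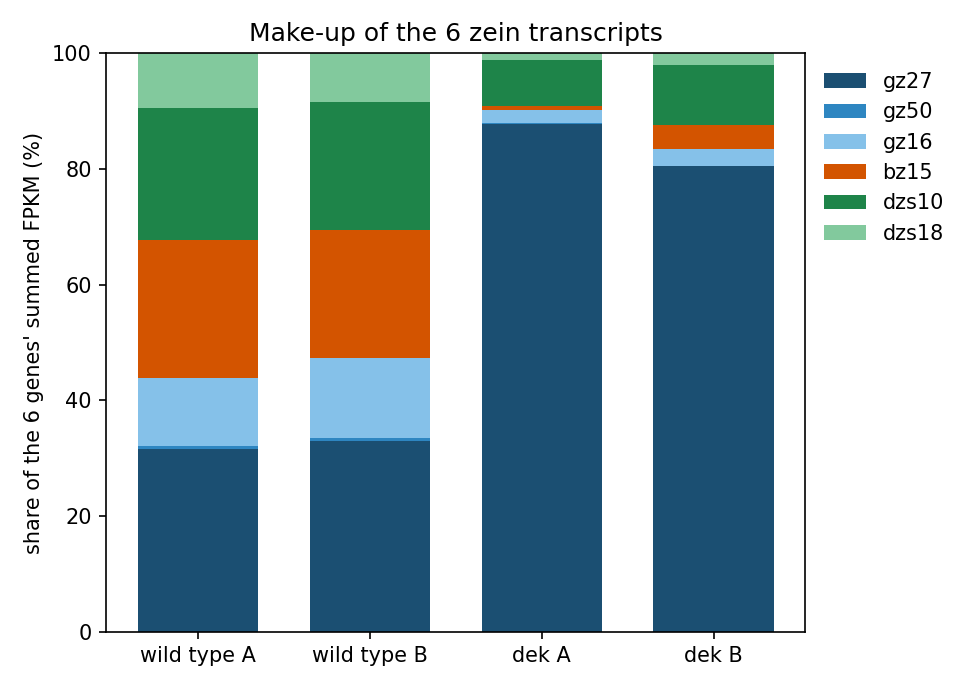
Share of the 6 genes' summed FPKM (%) held by each gene in each of the 4 libraries, stacked to 100%. The gz27 share rises from 31.6% and 32.9% in the wild-type pools to 87.8% and 80.4% in the dek pools, while gz50 is too small to see in dek.

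Alpha-zein genes, the other large zein class, gave a scale for these falls. All 22 alpha-zein genes tested of 25 listed were lower in dek, beside 8.85% of all genes tested. Their log2 fold changes ran from -11.26 to -7.54, with a median of -8.68. The lowest came from a gene with 0 and 1 estimated counts in the dek pools, so that end of the range rests on few counts. The 6 beta-, gamma- and delta-zein genes lay above that range, from -6.54 to -2.24. Without dek B, bz15 stood at -9.11 and the most abundant alpha-zein gene at -8.23. The alpha-zeins summed to 14448 and 15183 FPKM in the wild-type pools and to 53.2 and 72.1 FPKM in the dek pools. The 6 genes therefore exceeded the tested alpha-zeins by 3.41 and 2.98 times in wild type and by 67.5 and 86.4 times in dek. The difference in this log2 ratio was 4.58, with an exact two-sided permutation p = 0.333, again the smallest the design allows. The 6 genes made up 77.3% and 74.9% of zein FPKM in the wild-type pools and 98.5% and 98.9% in the dek pools, and gz27 alone went from 24.4% and 24.7% to 86.5% and 79.4%. The most abundant alpha-zein gene, z1B_6 (AF546188.1_FG007), fell from 3268 ± 206 to 17.9 ± 5.56 FPKM (n = 2). Alpha-zein copies are nearly identical and can share reads, so single copies are uncertain.

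The mutant pools differed from each other in the same direction for all 6 genes. In dek, B exceeded A by 1.59 times for gz27, 2.11 times for gz50, 2.19 times for gz16, 2.27 times for dzs10, 3.02 times for dzs18 and 10.4 times for bz15. In wild type the B to A ratio of the 6 genes lay between 0.829 and 1.17. Over all genes tested, 45.6% were higher in dek B than in dek A on the scale of log2(FPKM + 1). On that scale the difference of 3.32 for bz15 was the largest of the 24624 genes, ahead of a next value of 2.76. A difference at least as large as that of dzs18 was found in 39 genes, of dzs10 in 131, of gz16 in 149, of gz50 in 383 and of gz27 in 771. The alpha-zeins did not share one direction, with 9 of 22 higher in dek B and differences from -0.65 to 0.78. Many of them stood below 1 FPKM in dek, on few counts, where the added 1 compresses differences. The most abundant alpha-zeins were higher in dek B, by 1.56 times for z1B_6, 1.62 for GRMZM2G059620, 1.83 for AF546188.1_FG005 and 1.41 for GRMZM2G025763. Their class summed to 53.2 FPKM in dek A and 72.1 in dek B. With 1 pool on each side there is no test of these differences.

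**Figure D4:**
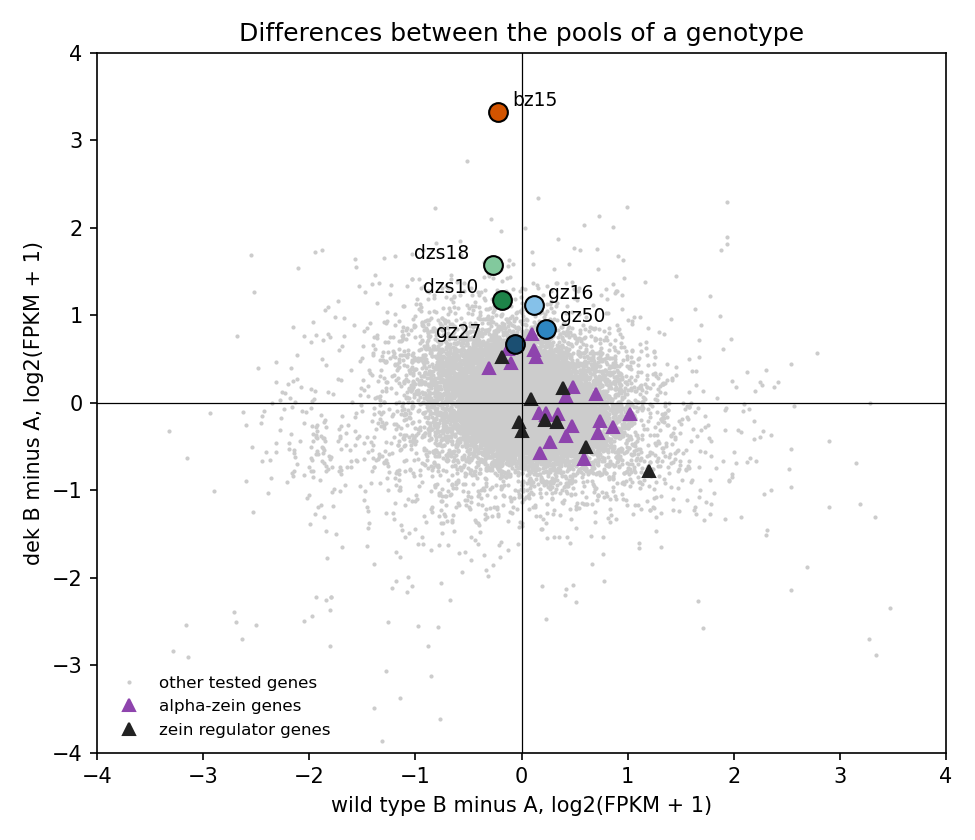
Difference between pools B and A in log2(FPKM + 1), wild type on the horizontal axis and dek on the vertical axis, for all tested genes (grey), alpha-zeins (purple triangles), zein regulators (black triangles) and the 6 genes (labelled circles); 7 genes lie outside the drawn range. The 6 genes lie above 0 on the dek axis and near 0 on the wild-type axis, and bz15 lies highest of all.

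Regulators that act on zein genes fell in part, by up to 4.83-fold. Among 9 tested, 4 were lower in dek, beside 8.85% of all genes tested, and the median of their log2 fold changes was -0.20. The Dof-type activator of zein promoters pbf1 (GRMZM2G146283), which binds the prolamin box, had 72.8 and 77.7 FPKM in the wild-type pools and 18.8 and 19.5 in the dek pools. It was even between the dek pools, and fell 4.83-fold. The bZIP activator opaque2 (o2, GRMZM2G015534) had 87.4 and 203 FPKM in the wild-type pools and 60.2 and 34.7 in the dek pools. It was lower in the dek pool where the 6 genes were higher, and a relation between these differences was not tested. Its partners ohp1 (GRMZM2G016150) and ohp2 (GRMZM2G007063), which bind gamma-zein promoters, did not pass the threshold, with log2 fold changes of -0.20 ± 0.15 and -0.17 ± 0.16 (± SE), which became 0.11 and 0.14 with total-count scaling. The regulators nkd1 (GRMZM2G129261) and nkd2 (GRMZM5G884137) were lower, by 1.39 ± 0.25 and 0.84 ± 0.16 on the log2 scale. The bHLH factor gene opaque11 (GRMZM2G147685) did not pass, at -0.02 ± 0.12, or 0.29 with total-count scaling. The 4 calls dropped to 1 without dek A, without dek B or with the replicate letter as a block, and to 2 with total-count scaling.

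In a list drawn up for protein bodies, 2 of 4 genes were lower, beside the same 8.85% of all genes. Floury1 (fl1, GRMZM2G094532), a membrane protein of the endoplasmic reticulum that places alpha-zein within the protein body, had 20.9 and 19.9 FPKM in the wild-type pools and 8.48 and 12.4 in the dek pools. Opaque10 (o10, GRMZM2G346263), needed for the ordered layering of zeins, had 18.4 and 17.0 FPKM in the wild-type pools and 5.69 and 6.12 in dek. They fell 2.40-fold and 3.63-fold, less than any of the 6 genes. The fl1 call was lost without dek A. Opaque5 (GRMZM2G142873) and opaque7 (GRMZM2G074759) did not pass, at -0.43 ± 0.12 and -0.53 ± 0.16 on the log2 scale.

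Genes for folding and disulfide bonds in the endoplasmic reticulum, where zeins are assembled, showed small differences. Of 26 tested, 3 were lower and 1 higher, and the log2 fold changes had a median of -0.03. These shares are near those over all genes tested, of which 8.85% were lower and 16.8% changed in either direction. The most abundant, a protein disulfide isomerase (GRMZM2G091481), fell 1.82-fold on the TMM scale. Its FPKM, which lacks that correction, was 1474 ± 192 in wild type and 1004 ± 158 in dek (n = 2). Protein disulfide isomerase 6 (GRMZM2G128171) fell 1.51-fold and protein disulfide isomerase 11 (GRMZM2G176443) 1.65-fold. The calcium-binding chaperone calreticulin 2 (crt2, GRMZM2G358059) rose 1.72-fold, from 129 ± 28.2 to 276 ± 47.9 FPKM. Without wild type A, 1 of the 26 passed. Scaling to total counts lost the 3 lower calls and gave 2 higher, and the 4 calls named here were lost without dek B and, but for GRMZM2G091481, without dek A.

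Genes for the synthesis of cysteine and methionine, the sulfur amino acids of these proteins, and for related steps moved in both directions. Among 34 genes fitted, 9 rose and 5 fell, where 7.98% and 8.85% of all genes tested were higher and lower. The median log2 fold change was -0.08. The list also holds genes for sulfate transport and for threonine synthesis. A sulfate transporter gene and a threonine synthase gene were among the 9, and another sulfate transporter gene was among the 5. A cysteine synthase gene (GRMZM2G036708) fell 3.10-fold on the TMM scale. Its FPKM, which lacks that correction, was 195 ± 17.7 in wild type and 77.6 ± 19.8 in dek (n = 2). Another copy, cysteine synthase 1 (GRMZM2G082185), rose 2.25-fold, from 20.9 ± 1.71 to 58 ± 2.91 FPKM. The ferredoxin-sulfite reductase gene (GRMZM2G090338), of the assimilation of sulfate, rose 1.79-fold, from 44.8 ± 8.08 to 98.8 ± 3.20 FPKM. A pair of methionine synthase family genes rose, GRMZM2G149751 by 1.57-fold and GRMZM2G449274 by 1.51-fold. The 9 became 5 without wild type A, 4 without wild type B or with the replicate block, and 2 without dek A or without dek B, and the 5 became 3 without dek A. The calls of both cysteine synthase genes held in every setting, while the calls of the other genes named here were lost without either dek library.

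Most tested genes for storage proteins outside the zeins were lower too. Of 4 tested, 3 were lower in dek, beside 8.85% of all genes. The remaining gene did not pass, at 0.81 ± 0.38 on the log2 scale, with a mean of 3.13 FPKM in wild type and 6.78 in dek. Legumin 1 (leg1, GRMZM2G174883), a globulin-type seed storage protein, had 2695 and 2588 FPKM in the wild-type pools and 703 and 1000.0 in the dek pools, with dek B the higher of the mutant pools. It fell 3.82-fold, by 1.93 ± 0.20 on the log2 scale, close in size to gz27. A globulin-1-like gene (GRMZM2G078441) fell 2.22-fold and glb1 (GRMZM2G067919) 1.95-fold. Without dek B 1 of the 4 was lower, and without dek A 2 were. In the lists of zein regulators, protein body genes and other storage proteins no member passed the threshold as higher in edgeR or in DESeq2. None was higher at an unadjusted p under 0.05 in edgeR.

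**Figure D5:**
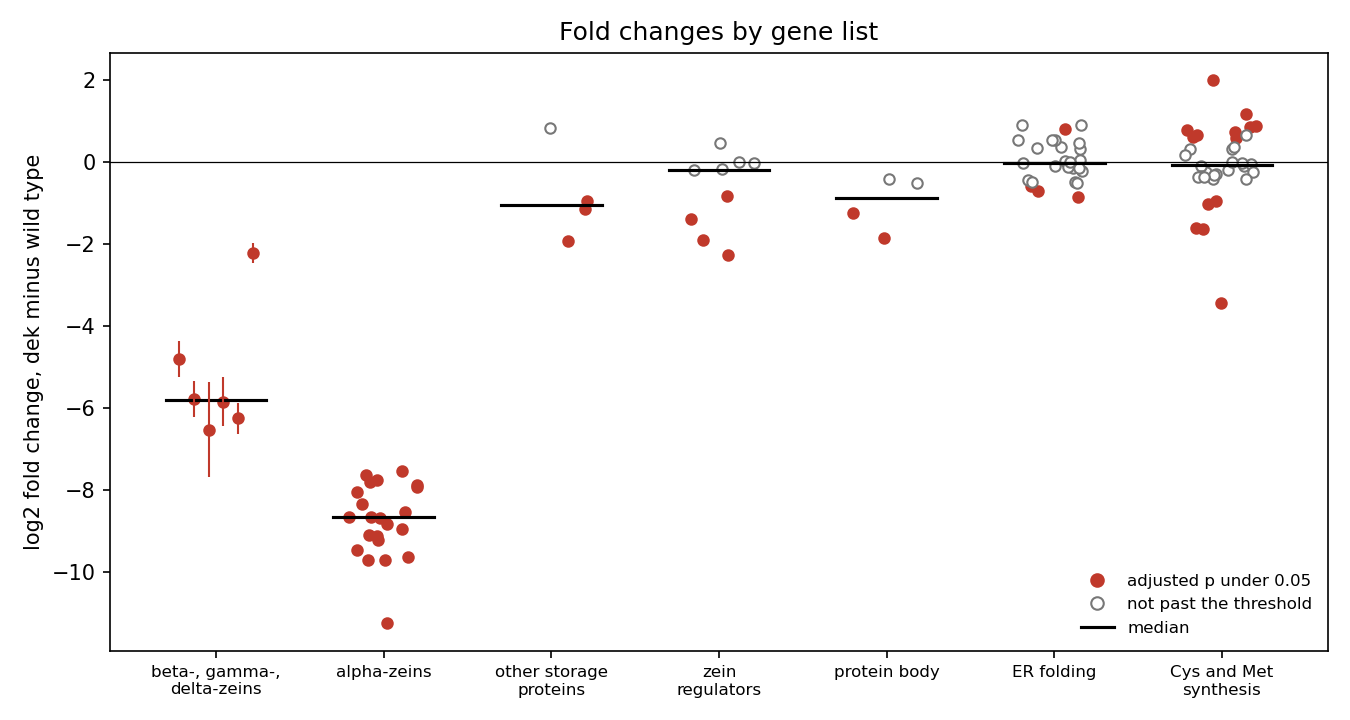
Log2 fold change (dek minus wild type, edgeR with TMM factors) of each tested gene by list; red points passed an adjusted p of 0.05, open points did not, and black lines are medians. Error bars on the first list are SE. All 6 beta-, gamma- and delta-zein genes lie above the alpha-zeins, 5 of them lie below every gene of the other 5 lists drawn (the tissue marker lists, with wx1 and bt2, are not drawn), and gz27, at -2.24, lies level with the lowest regulator, at -2.27.

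For each of the 6 genes, the genes with the most similar profile over the 4 libraries were found by the root mean square difference of centred log2(FPKM + 1) values. The search covered genes, zeins aside, that averaged 10 FPKM or more in the higher genotype. The nearest to gz27 was an uncharacterized gene (BGI_novel_G003007) at 0.07, with 101 and 110.1 FPKM in the wild-type pools and 22.4 and 34.5 in the dek pools, followed by a REVEILLE 6-like gene (GRMZM2G135052), of a family of MYB-like factors, at 0.10. The nearest to dzs10 was waxy1 (wx1, GRMZM2G024993), the granule-bound starch synthase of amylose synthesis, at 0.18. It stood at 1157 and 933 FPKM in the wild-type pools and at 19.6 and 55.3 in the dek pools, so it too was higher in dek B. The same gene was nearest to dzs18, at 0.41, and was second for gz16, at 0.38. For bz15 it shared the smallest distance, 1.245, with another gene, farther than the nearest gene of any other of the 6. An uncharacterized gene (GRMZM5G805389) was nearest to gz50, at 0.25, and to gz16, at 0.36. Among the 6 themselves, gz50 and gz16 were closest, at 0.12, and bz15 and gz27 farthest apart, at 2.72. These distances describe 4 libraries of 2 genotypes, so any gene with a fall of like size comes out as near.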

How the data were processed

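RNA-seq tables of 4 libraries were used, wild type A and B and dek A and B. The expected counts were deposited by the authors as estimated counts per gene, not normalized, and 13119658 to 14776699 were listed per library. FPKM, also deposited by the authors, corrects those counts for gene length and library size. The submitters' processing notes name HISAT, Bowtie2, RSEM and GATK; versions, roles and the genome build: not given in the sources used here. Genes missing from a table were taken as 0.

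Estimated counts were rounded and fitted with edgeR 4.0.16 in R 4.3.3 (quasi-likelihood test, TMM factors from 0.895 to 1.128, filterByExpr leaving 24624 genes, two-sided, Benjamini-Hochberg correction over all of them, threshold 0.05). SE is the unshrunken log2 fold change over the square root of F. Alternatives used DESeq2 1.42.0, limma 3.58.1 on log2(FPKM + 1) or log2(FPKM + 0.1), other scalings and fewer libraries; fits were tested on simulated data. Names were matched to RefSeq (Zm-B73-REFERENCE-NAM-5.0) by model identifier for 17811 genes and by protein accession for 5865, dzs10 among the latter.

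The 6 genes and the lists were chosen with earlier results of these data known. List entries whose annotation named another protein were removed, and missed alpha-zeins added, after identifiers and some values were seen. From each list the text names up to 4 genes that passed the threshold, those of highest mean level, or 2 if none did, though alpha-zeins and tissue markers are mostly given as sums; ohp1, ohp2, opaque11, opaque5, opaque7 and cysteine synthase 1 were added after their values were seen. For each of the 6 genes the 3 most similar were found, of which the nearest are named. The labels do not say that letters A and B mark a shared ear, or that libraries of a genotype come from independent material beyond the pools, so p-values measure the spread between pools.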

Additional observations from a re-analysis of the deposited data

How the results depend on the processing

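All 6 genes were lower in dek, past the threshold, as reported and in the alternative fits across genes that kept all 4 libraries. In the fits without 1 library their log2 fold changes stayed below 0. Those fits leave 1 library in a genotype, so calls from them do not measure the spread between its pools. The largest adjusted p was 0.0380, for bz15 with a replicate block by title letter. Genes higher in dek numbered 1965, against 4502 with total counts alone, 4483 and 4145 with limma on log2(FPKM + 1) and log2(FPKM + 0.1), 811 with the replicate block, and 281 to 1731 without 1 library. Genes lower in dek numbered 2178, against 1279, 1326, 1260 and 1080 in the same settings, and 465 to 1966 without 1 library. Higher genes were 47.4% of the calls with TMM and 77.9% with total counts alone. The letters were not taken as pairs: the same-letter deviations correlated at -0.022 over genes. The share of the 6 genes was 6.71% of summed FPKM in wild type, against 5% of counts, and 0.714% against 0.695% in dek. Without 1 library, the share of counts of a genotype is that of its other library, so it is no further check. These shares, given above, were 4.78% and 5.21% in wild type and 0.525% and 0.864% in dek. Of 25 other genes named in the text and past the threshold, 12 passed in every setting, and none of the 25 changed sign in any. The 25 do not include the alpha-zein genes GRMZM2G059620, AF546188.1_FG005 and GRMZM2G025763, which were also past the threshold. Of the named genes not past it, 3 changed sign in some setting, ohp1, ohp2 and opaque11. With 2 libraries per genotype, the size of the bz15 fall is the least certain of the 6.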

Other observations

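The deposited gene length of gz27, which follows the mix of its 3 transcript models, was 1660 and 1595 bases in the wild-type pools A and B and 1603 and 1581 bases in the dek pools. Those of gz50, gz16 and dzs10, with a single model each, were the same in the 4 libraries.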
